A study of Drosophila melanogaster with 2 samples.

Results

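Chemoreceptor genes encode the proteins with which insects smell and taste. The set described here comprised the 180 protein-coding genes whose symbol in the BDGP6.54 annotation is Or, Gr or Ir followed by a number and a letter, together with Orco, out of 13968 protein-coding genes. Each of the 3 families contributed 60 genes, with Orco counted among the Or genes, and 7 annotated chemoreceptor pseudogenes were left out. The genes lay on arms 2L (31), 2R (46), 3L (35), 3R (43) and on the X (25). Membership was decided by the symbol alone.

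Occupancy was measured by chromatin immunoprecipitation followed by sequencing (ChIP-seq) in whole Drosophila melanogaster prepupae synchronised as white prepupae, the stage at which metamorphosis begins. The animals belonged to 1 transgenic line that stably expressed CG10631 with GFP fused to its C-terminus, and an antibody against GFP was used for the precipitation. The labels name 2 biological replicates, numbered 2 and 3, of this single group, with the age given as unknown and the sex not collected. No second condition and no control library were analysed here, so each result below is a count or a value beside that of all protein-coding genes, with no test. Because whole animals were used, a site occupied in few cells and a site weakly occupied in many could not be told apart.

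Odorant receptors (Or) are membrane proteins of olfactory neurons that form ion channels together with the co-receptor Orco. Gustatory receptors (Gr) detect sugars, bitter compounds and carbon dioxide, and ionotropic receptors (Ir), relatives of the ionotropic glutamate receptors, detect acids, amines, humidity and temperature. In flies a given receptor gene is usually expressed in a small set of sensory neurons, and larval and adult sense organs use partly different receptors.

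The 4 deposited lists on dm6 differ in stringency. The replicate 2, replicate 3 and merged lists hold 30000 regions each. They include background regions for the comparison of replicates by the irreproducible discovery rate (IDR). The IDR list is the deposited thresholded set of 8399 peaks. The other 21601 merged regions were all weaker than its weakest peak, so the list amounts to a signal cut in the merged list. A listed peak need not have a region in both replicate lists, as at Or9a below. Signal is the authors' value per region in the peak caller's units, with a lowest value of 100.1 and a median of 190.1 in the IDR list, and 30.1 to 100.1 in the 21601 merged regions below it. A start site was any annotated transcript start, a promoter summit was a summit within 500 bp of one, and a body summit lay between the ends of the gene record. Read depth is unknown, and intervals cover counting error only.

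The sequences under selected peaks and weaker regions near chemoreceptor start sites are given first. They are dm6 sequences from the RefSeq Release 6 genome, written 5' to 3' on the strand of the receptor gene and centred on the summit in the merged list. None of them overlaps an annotated exon. The Gr77a peak is the only IDR peak in a chemoreceptor promoter, and 201 bases around its summit are shown; the others are 101 bases long. The Gr32a, Or88a, Orco and Ir94h peaks are the IDR peaks next nearest to a start site. The Ir94f, Ir67c and Ir94g regions were weaker than the IDR peaks and lay within 500 bp of the start. They are examples, and other weaker regions lay nearer to a start, such as that of Ir75c at 87 bp. Capitals mark a CAGTGC or TATAAA match on either strand, 2 of the motifs described with the promoters.
Gr77a (chr3L:20739526-20739726, minus strand): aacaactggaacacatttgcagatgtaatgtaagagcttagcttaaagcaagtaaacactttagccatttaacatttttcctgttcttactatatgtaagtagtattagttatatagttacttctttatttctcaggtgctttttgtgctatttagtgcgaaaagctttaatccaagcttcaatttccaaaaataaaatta
Gr32a (chr2L:11113247-11113347, plus strand): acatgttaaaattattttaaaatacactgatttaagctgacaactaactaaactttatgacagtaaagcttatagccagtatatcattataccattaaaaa
Or88a (chr3R:14108711-14108811, plus strand): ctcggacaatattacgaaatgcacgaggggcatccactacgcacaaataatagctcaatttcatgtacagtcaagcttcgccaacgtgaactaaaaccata
Orco (chr3R:5413192-5413292, minus strand): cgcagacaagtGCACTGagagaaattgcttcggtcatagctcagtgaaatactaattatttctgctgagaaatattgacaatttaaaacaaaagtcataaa
Ir94h (chr3R:23486885-23486985, plus strand): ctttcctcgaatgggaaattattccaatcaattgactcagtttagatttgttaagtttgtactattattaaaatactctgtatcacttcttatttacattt
Ir94f (chr3R:23481383-23481483, plus strand): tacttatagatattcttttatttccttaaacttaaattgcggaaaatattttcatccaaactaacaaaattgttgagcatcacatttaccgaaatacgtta
Ir94g (chr3R:23483570-23483670, plus strand): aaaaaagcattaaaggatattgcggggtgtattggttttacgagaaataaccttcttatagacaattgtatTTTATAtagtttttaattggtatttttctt
Ir67c (chr3L:10434273-10434373, minus strand): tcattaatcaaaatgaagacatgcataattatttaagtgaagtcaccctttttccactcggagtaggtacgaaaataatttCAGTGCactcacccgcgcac

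Only 1 of the 180 chemoreceptor genes, Gr77a, had a promoter summit in the IDR list (0.556%, Wilson 95% interval 0.0981 to 3.08%), against 2712 of all protein-coding genes (19.4%). By family, the count was 0 of 60 Or genes, 1 of 60 Gr genes and 0 of 60 Ir genes. A count of 0 among 60 genes allows a share of up to 5.0% as a limit of 3 counts, and of 6.02% as the Wilson upper bound, so the 3 families could not be told apart from one another. The merged list placed a promoter summit at 6 Or, 6 Gr and 8 Ir genes, 20 in all (11.1%), against 34.3% of all genes. The replicate 2 list had 9 Or, 5 Gr and 7 Ir genes with a promoter summit, 21 in all (11.7%), against 35.0% of all genes. The replicate 3 list had 6 Or, 5 Gr and 8 Ir genes, 19 in all (10.6%), against 35.2%. In each of these lists the Wilson intervals of the 3 families overlapped, and the Or count was 9 in replicate 2 and 6 in replicate 3.

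**Figure D1:**
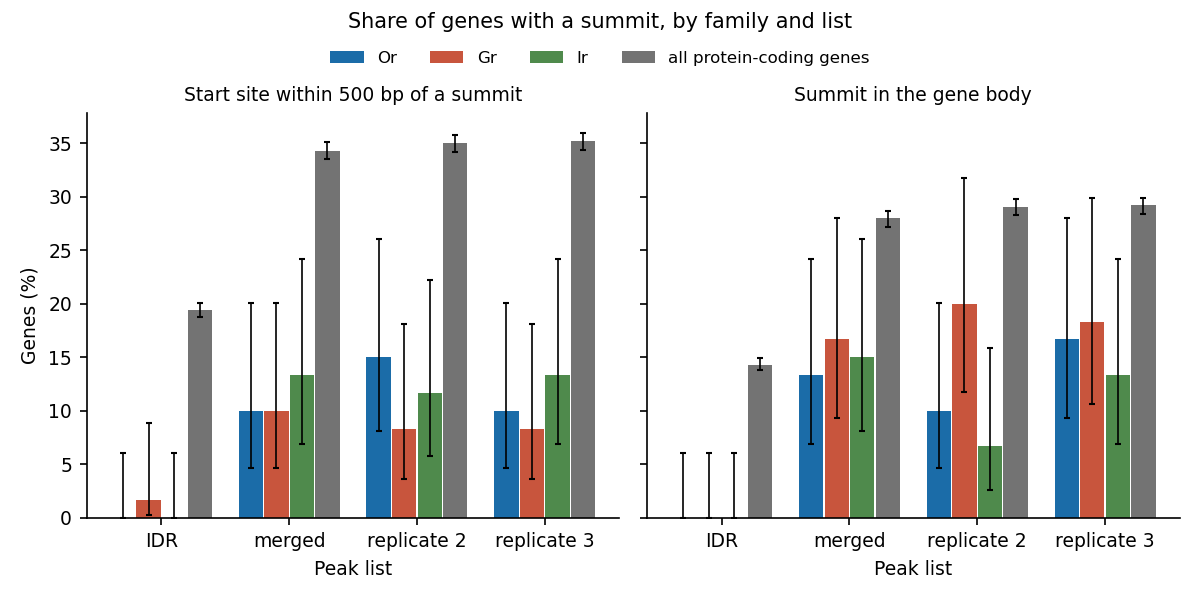
Share of genes (%) with a promoter summit (left) and with a body summit (right) in 4 peak lists, for 60 Or, 60 Gr and 60 Ir genes and for 13968 protein-coding genes; bars are shares and whiskers are Wilson 95% intervals for counting error. Each family lies below all protein-coding genes in every list of the left panel, with 0 or 1 gene per family in the IDR list.

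The start sites of most chemoreceptor genes are annotated differently from those of other genes. In 132 of the 180 (73.3%) the 5' end of the gene record was the first coding base, so no 5' untranslated region is annotated and the position of transcription initiation is not known from the record. This held for 43 Or, 40 Gr and 49 Ir genes, against 394 of the 13788 other protein-coding genes (2.86%). Among genes recorded in this way, an IDR promoter summit was found at 1 of 132 chemoreceptor genes (0.758%) and 9 of 394 other genes (2.28%), and a merged promoter summit at 14 (10.6%) and 40 (10.2%). Within this class the chemoreceptor and other genes therefore had nearly the same merged share. Among genes whose record begins before the coding sequence, an IDR promoter summit was found at 0 of 48 chemoreceptor genes and 2702 of 13394 other genes (20.2%), and a merged promoter summit at 6 (12.5%) and 4732 (35.3%). The part of the recorded start sites in the count of chemoreceptor promoters was not tested.

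Chemoreceptor genes were also short and mostly had a single start site. Their median record length was 1466 bp for Or, 1397 bp for Gr and 1908 bp for Ir genes, against 2164 bp for all protein-coding genes, and 167 of the 180 (92.8%) had 1 start site, against 73.5%. Among genes with 1 start site and a record under 5 kb, an IDR promoter summit was found at 1 of 165 chemoreceptor genes (0.606%), against 13.1% of all such genes. Base composition was close, with a median GC content from 250 bp before to 50 bp after the 5' end of 39.8% in Or, 39.5% in Gr and 39% in Ir genes, against 38% in all genes. In the GC quartiles of all promoters, from low to high GC, chemoreceptor genes had 0 of 30, 1 of 40, 0 of 63 and 0 of 47 IDR promoter summits, against 21.8, 22.3, 19.9 and 13.8% of all genes. Sequence repeated elsewhere in the genome was rare near their start sites: under 90% of the 31-mers within 500 bp were unique for 2 chemoreceptor genes (1.11%), the near-identical copies Or19a and Or19b, against 4.40% of all genes.

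The distance from a start site to the nearest IDR summit had a median of 13636 bp in Or genes, 11004 bp in Gr genes and 11839 bp in Ir genes, against 6213 bp in all protein-coding genes. It ranged from 684 to 120200 bp in Or genes, from 196 to 65968 bp in Gr genes and from 566 to 94040 bp in Ir genes, so the ranges of the families overlapped. Widening the window to 1000 bp took in 6 chemoreceptor genes (3.33%), against 23.2% of all genes. A window of 2000 bp took in 13 (7.22%), against 29.4%, and one of 10000 bp took in 77 (42.8%), against 63.3%. Chemoreceptor genes within 5 kb of another one (79 genes) had a median distance of 11407 bp, and the 101 that stood alone had one of 13540 bp. In the same order the medians were 8233 and 15085 bp in Or genes and 11472 and 12942 bp in Ir genes. The direction was opposite in Gr genes, with 11604 and 8172 bp.

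**Figure D2:**
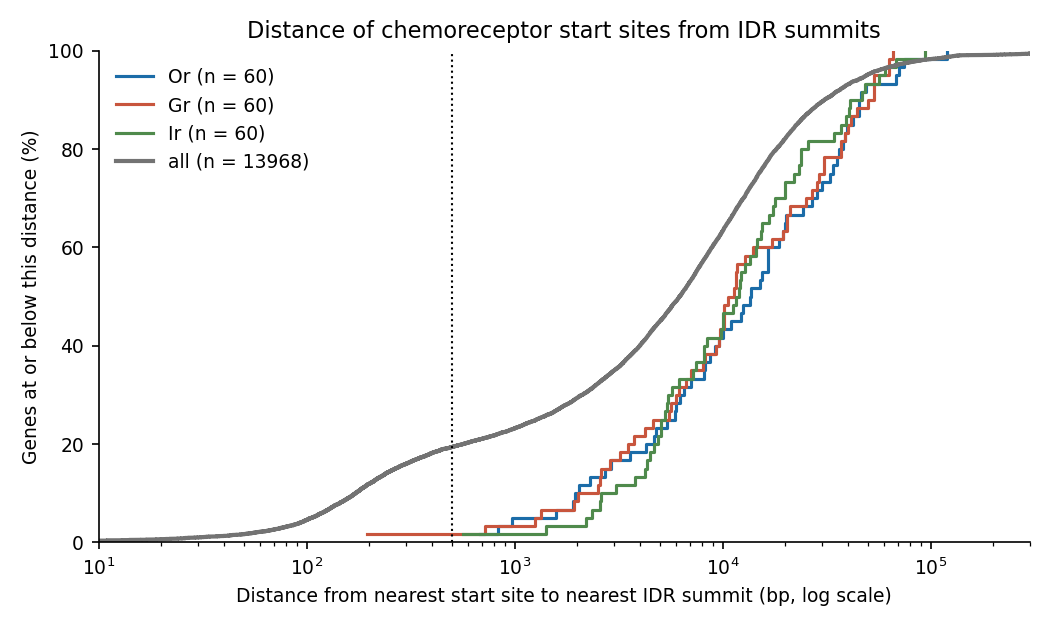
Cumulative share of genes (%) by the distance in bp from the nearest start site to the nearest IDR summit (log axis) for 60 Or, 60 Gr and 60 Ir genes and all 13968 protein-coding genes; the dotted line marks 500 bp. The 3 family curves run together and lie to the right of the curve of all genes through most of the range, with medians between 11004 and 13636 bp against 6213 bp.

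Gr77a, a gustatory receptor gene on arm 3L (FBgn0045474, 20737569 to 20739430, minus strand), lies within the record of CG13252. Its peak at chr3L:20739406-20739845 had its summit 196 bp upstream of the annotated start, in an intron of CG13252, a gene on the other strand. That start is the first coding base, so the distance to the site of transcription initiation is not known. The signal was 218 in the merged list, rank 3580 of 30000, and 114 in replicate 2 and 96.7 in replicate 3, a mean of 105 ± 12.2 (SD, n = 2). Both replicate lists thus held the peak, and no other annotated gene start lay closer to it. The host CG13252 held 3 IDR summits and 12 merged summits in its body, including this one, and had no promoter summit itself.

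**Figure D3:**
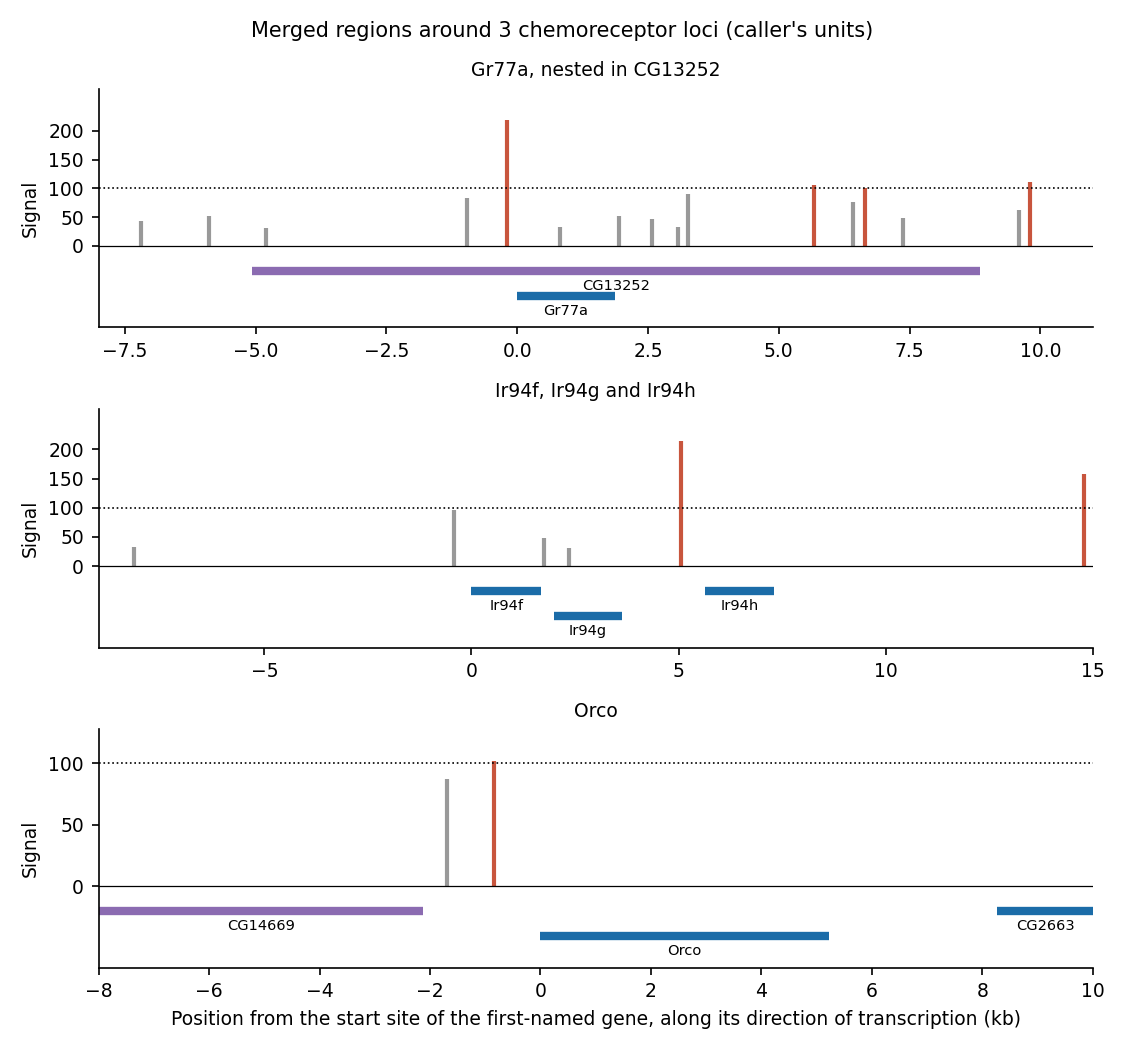
Signal (caller's units) of merged regions at their summit position in kb from the start site of Gr77a, Ir94f and Orco, along the direction of transcription; red lines are IDR peaks, grey lines weaker regions, the dotted line the lowest IDR signal of 100.1, blue bars genes on the same strand and purple bars genes on the opposite strand. The Gr77a peak of 218 stands just before the gene, the Ir94h peak of 215 lies between Ir94g and Ir94h, and the Orco peak of 102 barely exceeds the dotted line.

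The 5 genes just outside the 500 bp window were Ir94h, Or88a, Gr32a, Orco and Or9a. The Ir94h peak at chr3R:23486715-23487154 lay 566 bp upstream of the start, in the gap between Ir94g and Ir94h, with a signal of 215 in the merged list, 93.8 in replicate 2 and 119 in replicate 3. Or88a, a receptor of pheromone-sensing neurons, had a summit 684 bp upstream with 154 in the merged list, 63 in replicate 2 and 90.6 in replicate 3. That summit was 440 bp from the start of CG12402. Gr32a, a receptor for bitter compounds and male pheromones, had a summit 717 bp upstream with 405, 187 and 209.9 in the same order of lists, and this summit was 236 bp from the start of Idua, which encodes an iduronidase. Of these 5 peaks the one at Gr32a was the strongest, in the merged list and in both replicates. Orco had a summit 836 bp upstream, at chr3R:5413022-5413461, with 102 in the merged list, 47 in replicate 2 and 54.5 in replicate 3. Or9a had a summit 973 bp upstream with 155 in the merged list and 87.8 in replicate 3, 87 bp from the start of Neb-cGP, and the replicate 2 list held no overlapping region.

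Within 2 kb of a start site, 13 chemoreceptor genes had an IDR summit (7.22%), against 29.4% of all protein-coding genes. They were 6 Or, 5 Gr and 2 Ir genes. The summit was upstream of the start in 11 of them. It lay beyond the 3' end in the bitter receptor gene Gr89a, 1334 bp from the start, and in Or85f, 1916 bp from it. For 7 of the 13 the closest annotated start of any gene was the receptor's own, namely Gr77a, Gr89a, Gr93a, Ir94h, Or45b, Or94a and Orco. For the other 6 it belonged to another gene: Idua at Gr32a, CG5521 at Gr97a, the noncoding RNA gene CR44718 at the humidity receptor gene Ir68a, CG34117 at Or85f, CG12402 at Or88a and Neb-cGP at Or9a. The distance from the summit to that other start was 18 bp at Ir68a, 53 bp at Or85f and 807 bp at Gr97a. Side and nearest start were not counted over all protein-coding genes, so neither count was shown to be particular to receptor genes. The strongest of the 13 peaks after that of Gr32a were at Gr93a, a receptor required for the taste of caffeine, with 333, and at Or85f with 322. Ir68b, the Ir gene next in distance after Ir94h and Ir68a, had a summit 2206 bp away with 204 in the merged list and 119 in replicate 3, 38 bp from the start of yps, and the replicate 2 list held no overlapping region.

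The 20 chemoreceptor genes with a merged promoter summit included 19 of the 179 without one in the IDR list (10.6%), against 18.5% of all genes without one. The strongest such region of each of the 19 had a signal between 30.2 and 96.5, with a median over genes of 37.3. That all lay under the lowest IDR peak of 100.1 follows from their selection, because every merged region outside the IDR list does. The strongest were at Ir genes. Ir94f had a region 432 bp upstream with 96.5 in the merged list, 45.7 in replicate 2 and 49 in replicate 3. Ir67c had one 218 bp upstream with 88.6, 40.4 and 49 in the same order, and Ir60a one 268 bp upstream with 79.1, 37.1 and 43.5. Each of these 3 regions was found in both replicate lists. Or65c had 2 regions, the stronger 190 bp upstream with 60.5 in the merged list, 19.6 in replicate 2 and 38 in replicate 3. The other was 22 bp from the start, in the coding sequence, with 31.1 in the merged list, and the replicate 2 region overlapped both. Ir94g followed with 48.4, found in replicate 3 alone (30.6).

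The next regions were at Or67a with 44.1, Ir68a with 42.5, Gr39a with 40.9, Ir75d with 37.6 and Gr21a with 37.3 in the merged list. Gr39a encodes bitter receptors from several alternative first exons, and Gr21a 1 of the 2 carbon dioxide receptors. A promoter summit was present in both replicate lists for 8 of these 19 genes, in 1 list for 9 and in neither for 2, Gr22e and Or30a. Over all protein-coding genes with a merged but no IDR promoter summit, the counts were 1361, 648 and 71 of 2080. The share found in both was thus 42.1% in chemoreceptor genes, against 65.4% in all such genes. It rests on 19 genes, and the 2 sets were not matched for the signal of their regions. Of all 180, 9 had a promoter summit in both replicate lists (5.0%), against 29.2% of all genes, with 12 (6.67%) in replicate 2 alone and 10 (5.56%) in replicate 3 alone, against 5.83 and 6.04% of all genes. Just inside the window, in the merged list, were Or59c at 443 bp, Gr93b at 436 bp and Ir94f at 432 bp.

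**Figure D4:**
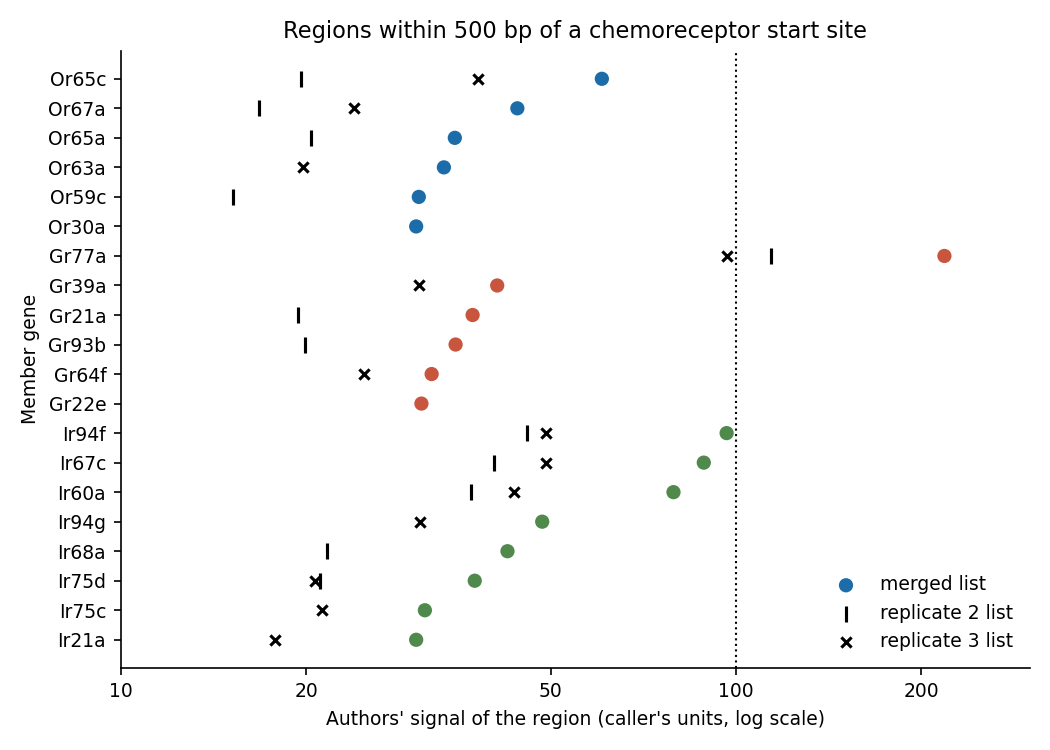
Authors' signal (caller's units, log axis) of the strongest merged region within 500 bp of a start site for 20 chemoreceptor genes, with the signal of the overlapping region in the replicate 2 and replicate 3 lists where there was one; coloured points are the merged list (blue Or, red Gr, green Ir), and the dotted line is the lowest IDR signal of 100.1. Gr77a alone lies to the right of the line, and Ir94f at 96.5 is the nearest to it on the left. Regions outside the IDR list lie left of the line by construction.

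At Ir60e the replicates differed. It had a summit 287 bp from its start in replicate 2 with a signal of 70.4, rank 5894, which was 35 bp from the start of CG13585, and no overlapping region in the replicate 3 or merged list. It was the 1 gene added to Gr77a when the 8399 strongest regions of replicate 2 were used alone, giving 2 of 180 (1.11%), against 20.1% of all genes. The 8399 strongest regions of replicate 3 gave Gr77a alone (0.556%), against 19.7%.

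No chemoreceptor gene had an IDR summit in its body, in 472 kb of gene bodies, against 2003 of all protein-coding genes (14.3%) and 55.3 summits per Mb of body. A count of 0 among 180 genes allows a share of up to 1.67% as a limit of 3 counts, and of 2.09% as the Wilson upper bound. The comparison rests mainly on short genes. Of genes under 2 kb, 0 of 127 chemoreceptor genes and 2.14% of all genes had an IDR body summit, and of those from 2 to 5 kb, 0 of 47 and 8.95%. Only 6 chemoreceptor genes reached 5 kb, where 43.2% of all genes had one. The merged list had a body summit in 8 Or, 10 Gr and 9 Ir genes, 27 in all (15%), against 28.0% of all genes. By length class, a merged body summit was found in 8.66% of chemoreceptor genes under 2 kb against 8.07% of all, in 27.7% of those from 2 to 5 kb against 22.0%, and in 3 of the 6 of 5 kb and over against 71.8%. The replicate 2 list had 22 chemoreceptor genes with a body summit (12.2%), against 29.0%, and the replicate 3 list had 29 (16.1%), against 29.2%.

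The merged body summits of chemoreceptor genes were 28 distinct regions, with signals from 30.2 to 47 and a median of 34.4, in the lowest part of the list. Counted per gene they gave 30 entries, of which 15 fell in coding sequence, 12 in introns and 3 in untranslated regions. The same split over all genes and the coding share of these bodies were not computed. For 132 of the 180 genes no 5' untranslated region is annotated, so the split depends on the annotation. The strongest region, with 47, lay in an intron shared by the overlapping records of Or10a and Gr10a. The region with 46.8 was in an intron of Gr39b, and the one with 44.1 in an intron of Or67a. Ir84a, a receptor for aromatic food odours, had a coding region with 33.5 and Ir92a, an ammonia receptor, an intronic one with 32.7. The Ir41a record spans 104437 bp, the longest of the 180, and held a single merged summit with 32.1. Density was 86.7 merged summits per Mb of Or bodies, 105 per Mb of Gr bodies and 33.7 per Mb of Ir bodies, against 205 per Mb over all genes. The Ir bodies came to 267 kb, including the long Ir41a record, and density was not compared within classes of gene length.

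By role, none of the lists had a member with an IDR promoter or body summit. Over all protein-coding genes the merged list placed a promoter summit at 34.3% and a body summit in 28.0%. The 5 co-receptors (Orco, Ir8a, Ir25a, Ir76b and Ir93a), with which other receptors assemble, had no merged promoter or body summit either. The nearest IDR summit was 836 bp from Orco and 2564 bp from Ir25a. That Ir25a summit lay in the 5' untranslated region of tank, 135 bp from its start, with a signal of 1449.7 in the merged list, 762 in replicate 2 and 682 in replicate 3. The nearest IDR summit was 11664 bp from Ir8a, 23311 bp from Ir93a and 56836 bp from Ir76b, in introns of Dsor1, Synd and CG42674. Among the 9 sugar receptors, a merged promoter summit was found at Gr64f alone, with 32, and the same region gave the merged body summits of Gr64d and Gr64e, whose records overlap. Their IDR distances ran from 3731 bp at Gr61a to 20510 bp at Gr43a.

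The 2 carbon dioxide receptor genes had their nearest IDR summit 2584 bp from Gr63a and 44417 bp from Gr21a. Of the 6 broadly used bitter receptor genes, Gr32a, Gr89a and Gr93a had an IDR summit within 2 kb, against 29.4% of all protein-coding genes. The summit at Gr32a was closer to the start of Idua. Gr39a had the 1 merged promoter summit among the 6. Of the 4 pheromone receptor genes, Or88a was nearest to an IDR summit, Or47b, Or65a and Or67d were 2726, 2892 and 5417 bp away, and Or65a had a merged promoter summit with 34.9. The 22 odorant receptor genes listed as larval had a median distance of 13636 bp, the same as all 60 Or genes. Of the 22, Or30a (30.2) and Or63a (33.5) had a merged promoter summit. Of the 17 antennal Ir genes, 4 had one, at Ir21a (30.2), Ir68a, Ir75c (31.2) and Ir75d. The median IDR distance of the 17 was 25870 bp, against 11839 bp in all 60 Ir genes. Of the 6 temperature and humidity receptor genes, Ir21a and Ir68a had a merged promoter summit. Over all protein-coding genes that share was 34.3%.

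Other genes of the chemosensory system gave the following counts, against 19.4% of all genes with an IDR promoter summit, 34.3% with a merged one and 14.3% with an IDR body summit. Of 50 genes for odorant-binding proteins, which carry odorants to the neurons, 1 had an IDR promoter summit (Obp83g, signal 358) and 9 a merged one. Of 6 receptor partners and channels, 0 had an IDR and 3 a merged promoter summit, at ppk23, ppk25 and Snmp2. Of 13 ionotropic glutamate receptor genes, 0 had an IDR promoter summit, 2 a merged one, and Nmdar1 an IDR body summit. Of 20 transcription factor genes of chemosensory neurons, 6 had an IDR promoter summit (zf30C, Xbp1, dan, mip130, Eip93F and fru, with signals of 601, 456, 242, 229, 117 and 112) and 7 an IDR body summit. The Eip93F peak had 32.1 in replicate 2 and 81.4 in replicate 3. The median record length of these 20 genes was 10588 bp, against 2164 bp for all protein-coding genes, and of all genes of 5 kb and over 30.1% had an IDR promoter summit and 43.2% an IDR body summit.

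Several hosts and neighbours of the receptor genes had IDR promoter peaks of their own. Of the 180 genes, 25 (10 Or, 6 Gr and 9 Ir) lay wholly within the record of another protein-coding gene, and these had 24 hosts. An IDR promoter summit was present at 8 hosts (33.3%), against 31.2% of all 943 protein-coding genes that span another one, and an IDR body summit in 8 (33.3%), against 49.3%. Among the nested genes themselves, 1 of the 25 chemoreceptor genes (4.0%) had an IDR promoter summit, against 9.38% of all 1599 nested protein-coding genes. The strongest host promoter peak was at Poxm, a paired-box transcription factor gene around Or85a. It had 957 in the merged list, 483 in replicate 2 and 475 in replicate 3. Its summit lay 485 bp from the start of Poxm, close to the 500 bp limit. Poxm was not counted with a 250 bp window, nor with the strongest regions of replicate 3 alone. The Poxm peak was followed by row around Ir51b with 705, CG3777 around Or1a with 306 and nord around Ir60a with 276. Next was Mondo, a sugar-responsive transcription factor gene around Gr39a, with 222. The promoter share of the hosts was close to that of all spanning genes. Their body share was lower, but it rests on 24 genes. Of the 8 hosts with a body summit, Pif1A and Pif1B have the same record and so share their summit.

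The nearest non-overlapping protein-coding genes on either side of the receptors were 248 genes, of which 34 (13.7%) had an IDR promoter summit, against 19.4% of all protein-coding genes, and within 1000 bp the shares were 22.6 and 23.2%. The share was 13.9% of 101 neighbours of Or genes, 9.46% of 74 neighbours of Gr genes and 15.9% of 82 neighbours of Ir genes, and a gene can neighbour more than 1 family. An IDR body summit was present in 39 (15.7%), against 14.3%. The strongest neighbour promoter peak was at CG1888, next to Or45b, with 1746 in the merged list, 856 in replicate 2 and 897 in replicate 3, rank 42. The tank peak beside Ir25a ranked 71. CG9815 beside Or59a had 979, CG42671 beside Ir68a 649 and Vps50, a subunit of a vesicle-tethering complex, beside Ir54a 443. Among the 34 neighbour genes with a promoter peak, 17 had a stronger and 17 a weaker peak than Gr77a. CG11593 and Rcd5, both among the stronger, shared the same peak.

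Promoter letters were searched on both strands from 250 bp before to 50 bp after the 5' end. For the 132 genes (73.3%) without an annotated 5' untranslated region, this window is placed on the first coding base and ends within the coding sequence. Only 2.86% of other protein-coding genes are recorded in this way. The windows compared were thus unlike, also for the GC content above, and shares among genes recorded alike were not computed. TATAAA was present in 47 Or (78.3%), 18 Gr (30.0%) and 33 Ir promoters (55.0%), against 45.8% of all promoters. On the gene's own strand the shares were 66.7, 21.7 and 36.7%, in the same order, against 32.1%. Between 45 and 20 bp before the 5' end they were 15, 3.33 and 6.67%, against 8.81%. In each of these counts the share was highest in Or and lowest in Gr promoters. IDR promoter summits were found at 20.3% of all genes with TATAAA and at 18.6% of those without it.

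CAACTT was present in 11 Or (18.3%), 10 Gr (16.7%) and 22 Ir promoters (36.7%), against 19.3% of all. TATCGATA, which holds the core of the DREF element of housekeeping promoters, was present in 1 chemoreceptor promoter (0.556%), against 9.36% of all. The unlike placing of the windows applies to this comparison too. CAGTGC was present in 13.9% of chemoreceptor promoters, against 14.9%, and a GATA site (GATA preceded by A or T and followed by A or G) in 45.6%, against 46.7%. Among the 101-base windows at all 8399 IDR summits, 25.2% held TATAAA, 24.3% a GATA site, 7.63% CAACTT, 6.16% CAGTGC and 0.774% TATCGATA. Of the 8 sequences printed above, those of Orco and Ir67c held CAGTGC and that of Ir94g held TATAAA, and none held the others. The windows of Ir94f, Ir94g and Ir94h, which lie next to each other, were 47.9 to 50.9% identical in pairwise alignments, those of Orco and Ir67c 50.8% and those of Gr32a and Or88a 57.4%, and the identity of windows chosen by chance was not computed.

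**Figure D5:**
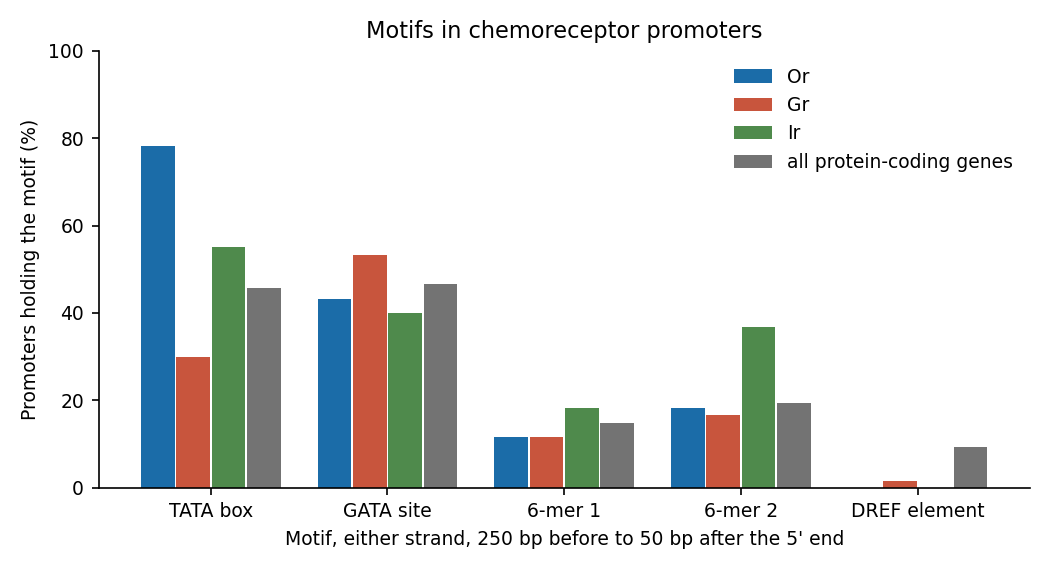
Share of promoters (%) that hold each motif on either strand, from 250 bp before to 50 bp after the 5' end, for 60 Or, 60 Gr and 60 Ir genes and all 13968 protein-coding genes; 6-mer 1 is CAGTGC and 6-mer 2 is CAACTT. The Or bar is the tallest for the TATA box at 78.3%, the Ir bar for 6-mer 2 at 36.7%, and the DREF element is at 0 in Or and Ir promoters.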

How the data were processed

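Processed peak lists were analysed, and the reads were not. Per the deposited descriptions, the merged and replicate lists are peaks and background for the IDR comparison, and the IDR list is the optimal thresholded set. The signal per region and the summit position were used as the authors deposited them. Caller, aligner and threshold settings were not given in the sources used here, and the dm3 lists were not used. Signals rank and describe regions within a list only, and depth is unknown.

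Start sites, gene records and names came from the BDGP6.54 annotation, and sequence from the RefSeq Release 6 genome, which is dm6. Positions are 1-based. A host is a protein-coding gene whose record spans a whole chemoreceptor gene, and a neighbour is the nearest non-overlapping one on each side. Uniqueness was the share of 31-mers found once in the genome. The overlap code was tested on simulated data. No tests were made across genes, which are not replicates, and the replicates are the only measure of spread.

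Named genes were those with an IDR promoter summit, the 10 strongest weaker promoter regions, the 3 genes per family nearest to an IDR summit, the co-receptors, the role lists, the 5 hosts and 5 neighbours with the strongest promoter peak, and genes on either side of the window limit; other names were chosen after their values were seen. The members and lists were chosen with earlier results of these data known. The split by annotated 5' end, by start sites with length, by nesting and by GC, and the position and strand of TATAAA, were added after seeing the data. Alternatives were windows of 250, 1000 and 2000 bp, whole peaks, the stronger 4199 IDR peaks, all merged regions, the 8399 strongest regions of each replicate, and 1 start site per gene. Python 3.11.15, pandas 2.3.3, numpy 2.4.6, biopython 1.88 and matplotlib 3.10.9 were used.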

Additional observations from a re-analysis of the deposited data

How the results depend on the processing

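Of 74 alternative values, 29 were outside 1.5 times the reported count. Of the other 45, 23 were 0 against a reported 0. Some of these came from a narrower window, a shorter list or 1 start site per gene, which can return nothing else. The rest came from whole peaks or from the strongest regions of a single replicate, which could have returned a count. With an IDR summit within 1000 bp, 3 Or, 2 Gr and 1 Ir genes were counted, 6 in all, and with 2000 bp 6 Or, 5 Gr and 2 Ir genes, 13 in all. Counting whole peaks gave 1 Or, 2 Gr and 1 Ir gene, 4 in all, against 21.1% of all protein-coding genes, and a peak overlapped the body of 2 genes, both Gr, against 22.4%. With all merged regions the promoter counts were 6 Or, 6 Gr and 8 Ir, 20 in all, and the body counts 8 Or, 10 Gr and 9 Ir, 27 in all. Leaving out a replicate gave 0 to 1 Ir genes and 1 to 2 genes in all, the added gene being Ir60e without replicate 3. Hosts with a promoter summit numbered 4 (16.7%) with 250 bp, against 14.4% of all genes. Neighbours with one numbered 21 (8.47%) with 250 bp, against 14.4%, 56 (22.6%) with 1000 bp, against 23.2%, 65 (26.2%) with 2000 bp, against 29.4%, and 73 (29.4%) with all merged regions, against 34.3%, so the neighbour share was close to that of all genes at 1000 bp. The wider windows and the longer list take in more regions by construction.

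No paired analysis was possible because the 2 replicates belong to 1 group and no comparison between groups was made. Read depth is unknown, so a receptor gene without a region was not shown to be unoccupied.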
